A study of Rattus norvegicus with 15 samples.

Results

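The newborn ductus arteriosus was set against the fetal ductus, with 6 of the 15 arrays of the series, chosen by their titles. The series used 3 types of Affymetrix rat array, called chips A, B and C, and the comparison rests on 1 array per side and chip. The fetal arrays are labelled 19 days post coitum without oxygen, and their vessels came from fetuses taken by caesarean section from a normoxic dam. The newborn arrays are labelled 3 hours, after vaginal delivery. Animals of both ages were killed by cervical dislocation, and vessels were freed of adhering tissue in ice-cold Krebs medium bubbled with 2.5% oxygen for the fetus and 12.5% for the newborn. The texts for chips B and C describe every state at once, so these details were taken from chip A. Strain, sex and the number of animals behind an array are not stated in the labels. Age, delivery, breathing and the oxygen of the medium all differ between the sides, and their shares in a ratio cannot be told apart.

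The ductus arteriosus is a muscular artery that carries blood from the pulmonary trunk to the descending aorta while the lungs of the fetus are unused. After birth its smooth muscle contracts as arterial oxygen rises and prostaglandin E levels fall, and over the next days the wall is remodelled and the lumen sealed. Birth itself brings a surge of glucocorticoids and catecholamines, a pause in maternal glucose supply and a switch from placental to lung gas exchange. Contraction of the vessel was not measured here.

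Both ductus states carried the smooth muscle genes that define the tissue. In the fetal and the newborn ductus the smooth muscle actin Acta2 had signals of 20532 and 30805, the smooth muscle myosin Myh11 5415 and 8143, and the calponin Cnn1 3825 and 3681. Tfap2b, a transcription factor known from ductus smooth muscle, read 330.1 and 413.6 in the ductus pair against 141 and 127 in the aorta pair, where it lay under the floor. RNA controls overlapped between the sides. The ratio of 3′ to 5′ signal of the beta-actin control was 1.25 to 1.47 on fetal and 1.44 to 1.45 on newborn ductus arrays, and that of the GAPDH control 1.38 to 1.56 and 1.26 to 1.49. The GAPDH 3′ control had a log2 ratio of newborn over fetal signal of -0.24 ± 0.08 (SD, n = 3 chips), whereas the control for 5S ribosomal RNA had one of 1.02 ± 0.15 (SD, n = 3 chips). The part of that ribosomal RNA difference in the results was not tested.

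All results below are log2 ratios, or folds, of newborn over fetal signal within a chip, with no replicate arrays and hence no test and no error across animals. A signal under the floor of its chip (150 on A, 242 on B and 243 on C) was set to the floor, so that a fold with 1 side under it is a lower bound. Genes with several measured probe sets were read at the brightest. The closest to a repeat reading is a second probe set for the same gene. Over 2388 pairs of such probe sets on different chips, the SD of a single log2 ratio was 0.36, and 0.35 over 2279 pairs on the same chip. Where 1 probe set of a gene was at least 2-fold apart, its partner on another chip had the same sign in 194 of 239 ordered pairs (81.2%) and was at least 1.5-fold apart in the same direction in 55.6%. This spread covers probes and hybridisation, not differences between animals.

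Of 13204 measured probe sets, 288 (2.18%) had a newborn signal at least 2 times the fetal one and 264 (2.0%) a fetal signal at least 2 times the newborn one. They include 72 higher and 65 lower probe sets without a gene symbol. Among 7231 measured genes 129 (1.78%) passed 2-fold upward and 135 (1.87%) downward, and the median log2 ratio was -0.05, with quartiles at -0.32 and 0.22. At the 1.5-fold threshold used for gene lists the background was 558 genes higher (7.72%) and 719 lower (9.94%). In whole vessels fewer cells of a type and less RNA per cell cannot be told apart.

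**Figure D1:**
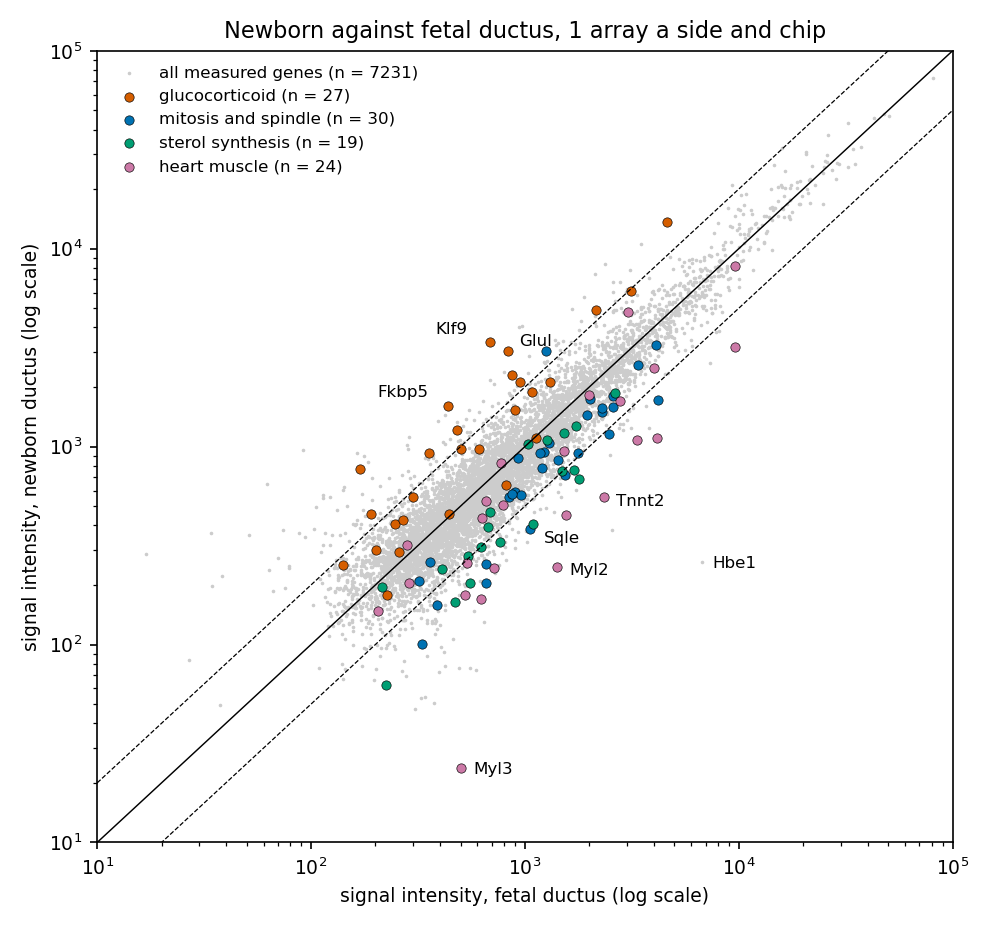
Signal of each of 7231 genes in the newborn ductus (vertical, log scale) against the fetal ductus (horizontal, log scale), 1 array per side and chip, with dashed lines at 2-fold and signals under 10 drawn at 10. Most genes (grey) lie between the lines. Of 27 genes of the glucocorticoid list, 10, such as Klf9, lie above the upper line, and mitosis, sterol synthesis and heart muscle genes lie mostly below the diagonal.

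Gene lists and their members were chosen with earlier results of these data known, so their medians and shares are descriptions. Across 41 gene lists the largest median shift upward was that of the glucocorticoid list of receptor, activating enzymes and targets (0.89). The largest shifts downward were those of sterol synthesis (-0.78), heart muscle (-0.70), mitosis (-0.61) and DNA replication (-0.59). Smooth muscle (0.40), endothelium (0.40), vasoactive signalling (0.37) and inflammatory mediators (0.36) had smaller upward medians. These cover measured members. Over all members on the chips, where a gene under the floor on both sides counts as 0, these smaller upward medians were 0.40, 0.34, 0 and 0 in that order. By the same measure the glucocorticoid list had 0.73, sterol synthesis -0.58, heart muscle -0.64, mitosis -0.57 and DNA replication -0.53. Heart muscle then lay below sterol synthesis. Ribosomal proteins (0.01), chaperones (0.04), the proteasome (-0.12) and the mitochondrial respiratory chain (-0.14) lay close to the median of all genes.

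**Figure D2:**
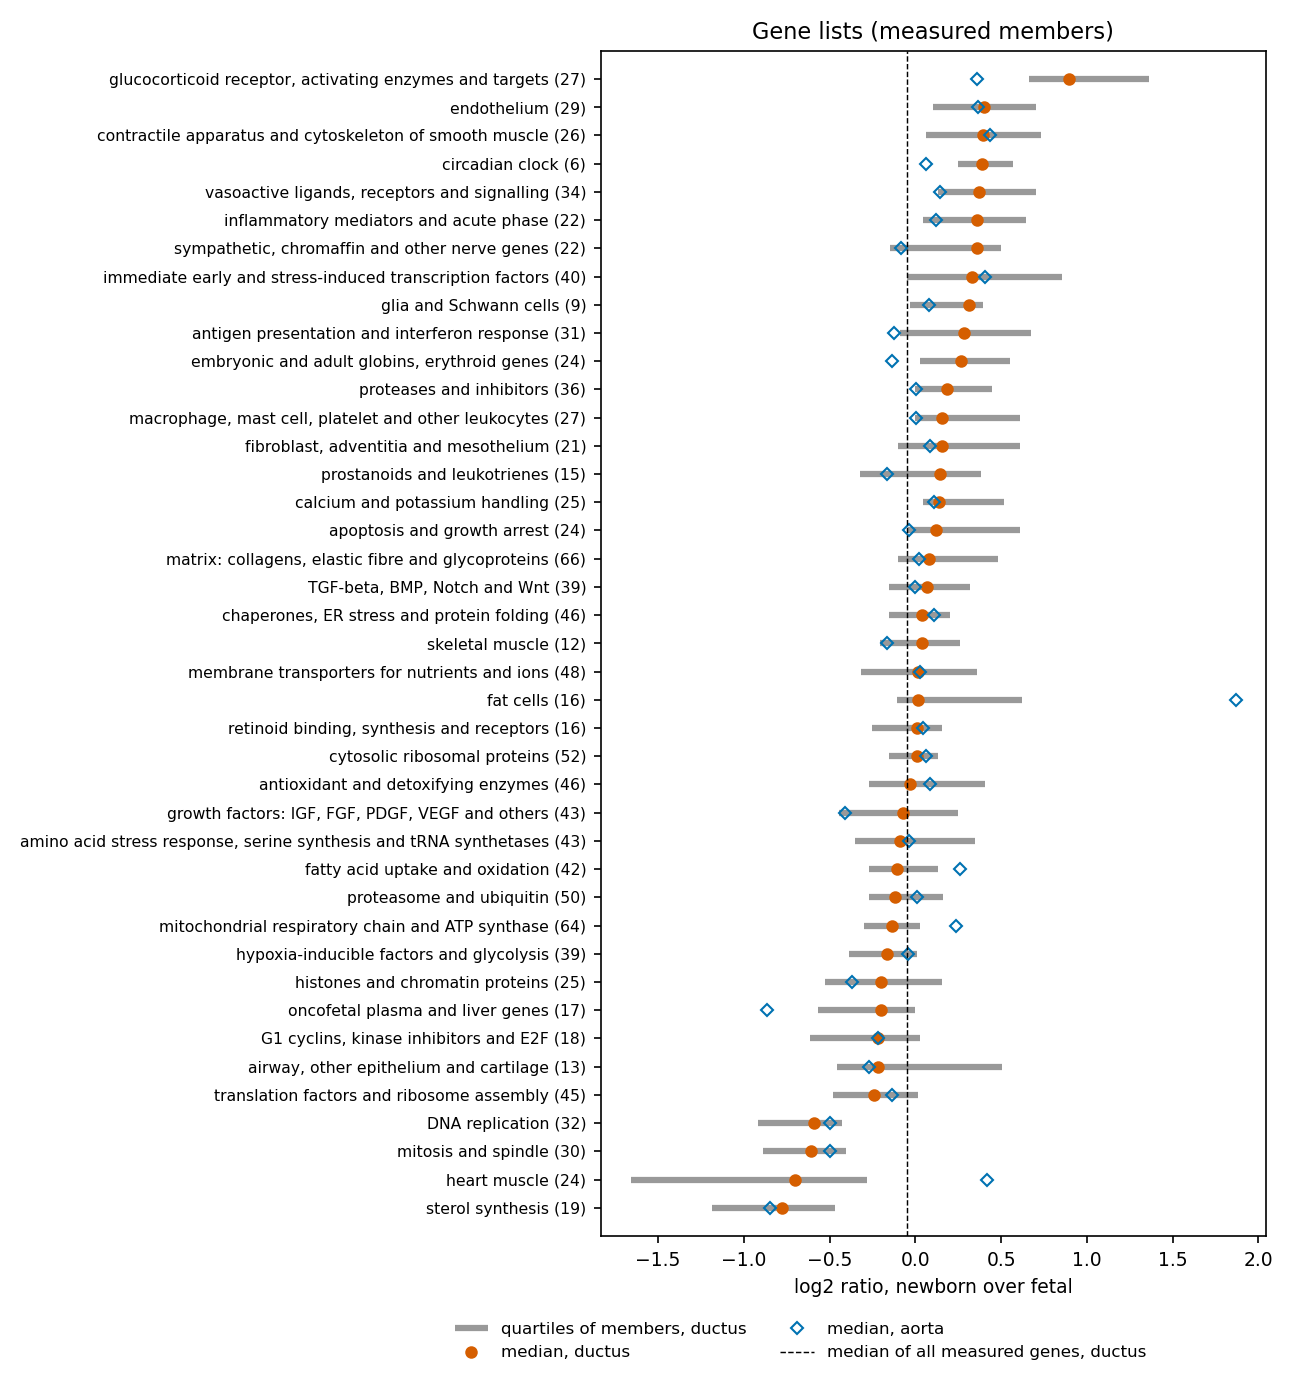
Median log2 ratio of newborn over fetal ductus signal for each of 41 gene lists (dots, with bars from the lower to the upper quartile of members), with the median of the same list in the aorta (diamonds) and the all-gene median of -0.05 as a dashed line. Heart muscle and fat cell lists are those where dots and diamonds lie farthest apart, at -0.70 against 0.42 and at 0.01 against 1.87.

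Genes induced by glucocorticoids were higher in the newborn ductus. Cortisol and corticosterone bind the receptor Nr3c1, which then activates genes through response elements. Of 39 genes in the list 34 were on the chips and 27 measured. Of these, 21 were at least 1.5-fold higher and 0 lower, against a background of 7.72% and 9.94%. Since the list was chosen with earlier results of these data known, this count is no independent test. The transcription factor gene Klf9 had a fetal signal of 687 and a newborn signal of 3379 (4.92-fold), and its other probe set gave a log2 ratio of 2.17. Fkbp5, a co-chaperone that dampens receptor activity, read 438 and 1612 (3.68-fold). Glul, glutamine synthetase, read 838 and 3055, and its 5 probe sets ran from 0.68 to 1.87 on the log2 scale. The list thus holds genes of receptor feedback, transcription and metabolism.

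Further members were higher as well. Tsc22d3, the anti-inflammatory leucine zipper GILZ, read 483 and 1215 (log2 ratio 1.33), and Cebpb, a transcription factor of acute responses, 355 and 928 (1.39). Pdk4, which blocks pyruvate entry into the citric acid cycle, was under the floor in the fetus at 169 and read 768 in the newborn, at least 3.16-fold higher. Txnip, an inhibitor of thioredoxin and of glucose uptake, read 2156 and 4888, Nfkbia, the NF-kappaB inhibitor, 871 and 2312, and Anxa1, annexin A1, 948 and 2126. The receptor was not among the genes that differed, since Nr3c1 read 440 and 458. Hsd11b1, the enzyme that regenerates active glucocorticoid, read 141 and 253 against the floor of 150. Mt2A was the member with the lowest log2 ratio (-0.35), beside Cebpd at -0.02 at its brightest probe set and up to 1.11 at another. A window of 300 bases around the RefSeq transcription start was available for 23 of the 27 members. None of the 23 held the full glucocorticoid response element, which occurred in 0.422% of all 27457 windows, searched on both strands, and this says only that those letters are absent there.

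Immediate early genes, which answer within minutes to stretch, calcium or growth factors, were higher for some members and near the fetal level for others. Of 55 listed, 40 were measured, 15 of them at least 1.5-fold higher and 1 lower, with a median of 0.33. That median was 0.20 without chip A and 0.49 at the top of the range over all alternatives. Fos, part of the AP-1 factor, read 931 and 2165, and its 5 probe sets on 2 chips gave log2 ratios of 1.22 to 2.23. Atf3, a stress-induced repressor, read 173 and 577 (3.33-fold). Junb, the partner of Fos, read 180 and 444 (2.47-fold), and Nr4a1, an orphan nuclear receptor, 488 and 1066 (2.18-fold). The flow-responsive factor Klf2 read 479.9 and 1336 (2.78-fold). Klf4 had 3 probe sets on 2 chips, with log2 ratios of 1.37 to 2.17. Myc had a log2 ratio of -0.07, Srf one of 0.21 and Ccn2, connective tissue growth factor, one of 0.16. Ccn1 was the member at least 1.5-fold lower (3788 and 1248), but its probe sets disagreed, from -1.60 to 0.52. The CArG box, the site of the factor Srf, was found in the window of 5 of 30 members with one (16.7%), Egr1, Klf6, Zfp36, Dusp5 and Srf, against 1.64% of all windows.

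Clock genes were measured for 6 of 24 listed members. Per2, a repressor of the clock that glucocorticoids also induce, read 237 and 549.8 (2.32-fold), and Nr1d1, the repressor REV-ERB alpha, 205 and 310.5 (1.51-fold). Tef, a clock output factor, was at a log2 ratio of 0.49 and Cry2 at 0.24. The labels do not give the hour at which the vessels were taken.

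Genes of DNA replication and mitosis were lower in the newborn ductus almost throughout. Of 42 replication genes 32 were measured, and 16 of these were at least 1.5-fold lower and 0 higher. All 32 had log2 ratios below 0, from -1.35 to -0.04. The helicase gene Mcm6 read 2769 and 1235, Mcm5 486 and 209, and Mcm7 1206 and 567, which made them 2.24-fold, 2.32-fold and 2.13-fold lower. Tk1, thymidine kinase, read 1566 and 722, and Rrm2, the S phase subunit of ribonucleotide reductase, 1579 and 753, with all 3 Rrm2 probe sets between -1.13 and -0.85. Pold1, the catalytic subunit of polymerase delta, was at least 2.55-fold lower (382 against 128, under the floor). The sliding clamp Pcna had a smaller difference (4191 and 3189, log2 ratio -0.39), as did topoisomerase Top2a (-0.52).

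Of 46 mitosis genes 30 were measured, with 18 at least 1.5-fold lower and 1 higher and a median of -0.61. Cdc20, the activator of the anaphase-promoting complex, read 1054 and 382 (2.76-fold lower) and was lower on both chips that carry it. Espl1, the separase that cleaves cohesin, read 658 and 254 (2.59-fold lower), and the proliferation antigen Mki67 4200.3 and 1727 (2.43-fold lower). Ccna2, cyclin A2, read 658 in the fetus and 205 in the newborn, under the floor and at least 2.72-fold lower. The kinesin Kif22 read 2470.4 and 1157, and Cks2, a subunit of the cyclin-dependent kinase complex, 1764 and 925. The core mitotic genes Ccnb1 (-0.61), Cdk1 (-0.38) and Ccnb2 (-0.22) differed by less on the log2 scale, so members ran from Cdc20 at -1.46 to Hmmr at -0.08. Cdc25b, the phosphatase that activates cyclin-dependent kinases, was the exception, with 1251 and 3039 (2.43-fold higher) and log2 ratios of 0.77 to 1.81 over 4 probe sets on 3 chips.

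The promoters of mitosis genes are shown because these genes were lower together and are known to share a short element near the start of transcription. RefSeq windows on the GRCr8 assembly, from 250 bases before to 50 bases after the start, were found for 26 of the 30 measured members. TTTGAA, the cell cycle homology region, stood in 19 of the 26 (73.1%) on either strand, against 18.1% of 27457 windows, and CCAAT in 23 (88.5%) against 37.7%. Replication genes held TTTGAA in 3 of 29 windows (10.3%) and CCAAT in 18 (62.1%). The 200 bases before the start follow for 4 mitosis genes lower in the newborn, 5′ to 3′ on the strand of the gene. Capitals mark TTTGAA or its reverse complement TTCAAA, and CCAAT or its reverse complement ATTGG. Cdc20 lies at chr5:137255800-137255999 on the minus strand, Kif22 at chr1:191080879-191081078 (minus), Cks2 at chr17:13727520-13727719 (minus) and Hmgb2, a chromatin protein of dividing cells, at chr16:37723951-37724150 (minus).
Cdc20: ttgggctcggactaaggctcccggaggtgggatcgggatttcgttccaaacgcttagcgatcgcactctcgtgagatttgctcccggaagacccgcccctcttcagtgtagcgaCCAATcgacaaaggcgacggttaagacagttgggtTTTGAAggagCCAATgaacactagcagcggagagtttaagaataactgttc
Kif22: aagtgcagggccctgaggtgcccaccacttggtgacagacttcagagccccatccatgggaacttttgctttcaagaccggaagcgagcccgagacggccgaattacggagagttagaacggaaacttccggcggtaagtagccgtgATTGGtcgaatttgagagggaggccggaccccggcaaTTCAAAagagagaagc
Cks2: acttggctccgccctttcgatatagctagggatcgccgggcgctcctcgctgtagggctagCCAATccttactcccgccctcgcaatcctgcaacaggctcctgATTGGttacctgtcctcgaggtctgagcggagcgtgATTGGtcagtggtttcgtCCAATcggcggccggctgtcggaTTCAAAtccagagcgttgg
Hmgb2: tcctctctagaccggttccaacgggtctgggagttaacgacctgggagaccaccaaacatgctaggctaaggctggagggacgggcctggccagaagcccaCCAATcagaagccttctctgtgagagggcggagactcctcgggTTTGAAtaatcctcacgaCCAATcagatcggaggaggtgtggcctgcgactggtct
In Cdc20 the TTTGAA starts 51 bases before the start, between CCAAT matches at 86 and 41 bases before it. Hmgb2 has the same order, with TTTGAA at 56 bases and CCAAT at 99 and 38. In Kif22 and Cks2 the reverse complement TTCAAA lies at 16 and 19 bases before the start, downstream of the nearest CCAAT matches of either strand. Mitosis genes with and without the match had like ratios, with a median of -0.60 over the 19 with TTTGAA and -0.61 over the 7 without it. A match is a description of these letters, not a site or a cause.

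G1 regulators were lower for fewer members, 5 of 18 measured at least 1.5-fold lower and 0 higher. Skp2, the ubiquitin ligase subunit that marks the inhibitor p27 for degradation, read 815 and 266 (3.07-fold lower). Its newborn signal lay near the floor, and a floor 1.5 times the median gave a log2 ratio of -1.17 in place of -1.62. Cdkn1c, the imprinted inhibitor p57, read 7370 and 2653 at its brightest probe set (2.78-fold lower), while its other probe set gave -0.38. D-type cyclins lay near the background, with Ccnd1 at 0.04, Ccnd2 at -0.20 and Ccnd3 at -0.23. Histones and chromatin proteins had 2 of 25 members higher and 6 lower, near the background share of 7.72% for the higher ones. Dnmt1, the maintenance DNA methyltransferase, read 755 and 362 (2.09-fold lower), whereas H1f2, a linker histone, read 3097 and 7773 (2.51-fold higher). Ezh2 had probe sets on either side, from -1.07 to 0.48.

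Sterol synthesis was lower from its early to its late steps. The pathway builds mevalonate from acetyl-CoA, joins isoprene units to squalene and closes the ring to lanosterol, which is trimmed to cholesterol, and the factors Srebf2 and Srebf1 drive its genes. Of 28 genes 23 were on the chips and 19 measured, with 11 at least 1.5-fold lower, 0 higher and 19 of 19 ratios below 0. Among early steps, the thiolase gene Acat2 read 1688 and 761 (2.22-fold lower, with 3 probe sets from -2.06 to -0.64), the decarboxylase gene Mvd 469 and 164 (2.87-fold lower) and the isomerase gene Idi1 764 and 329 (2.32-fold lower). Sqle, the squalene epoxidase that is a limiting step, read 1094 and 407 (2.69-fold lower). Of the later steps, Msmo1, the C4 demethylase, read 1794 and 687 (2.61-fold lower), Sc5d 627 and 311 (2.02-fold lower) and Dhcr7, the last reductase, 554 and 205 (2.70-fold lower). Ratios thus reached 2-fold on both sides of the squalene step, with Fdft1 (-0.50), Fdps (-0.38), Ebp (-0.14) and Pmvk (-0.02) closer to 0. The feedback sensor Insig1 was at -0.23, with 4 probe sets from -0.56 to -0.11. Srebf1 read 674 and 394 and was lower on both chips that carry it, and Srebf2 was at -0.45. Fasn, the fatty acid synthase that Srebf1 controls, was also lower on each of its chips (1024 and 621, 1.65-fold).

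**Figure D3:**
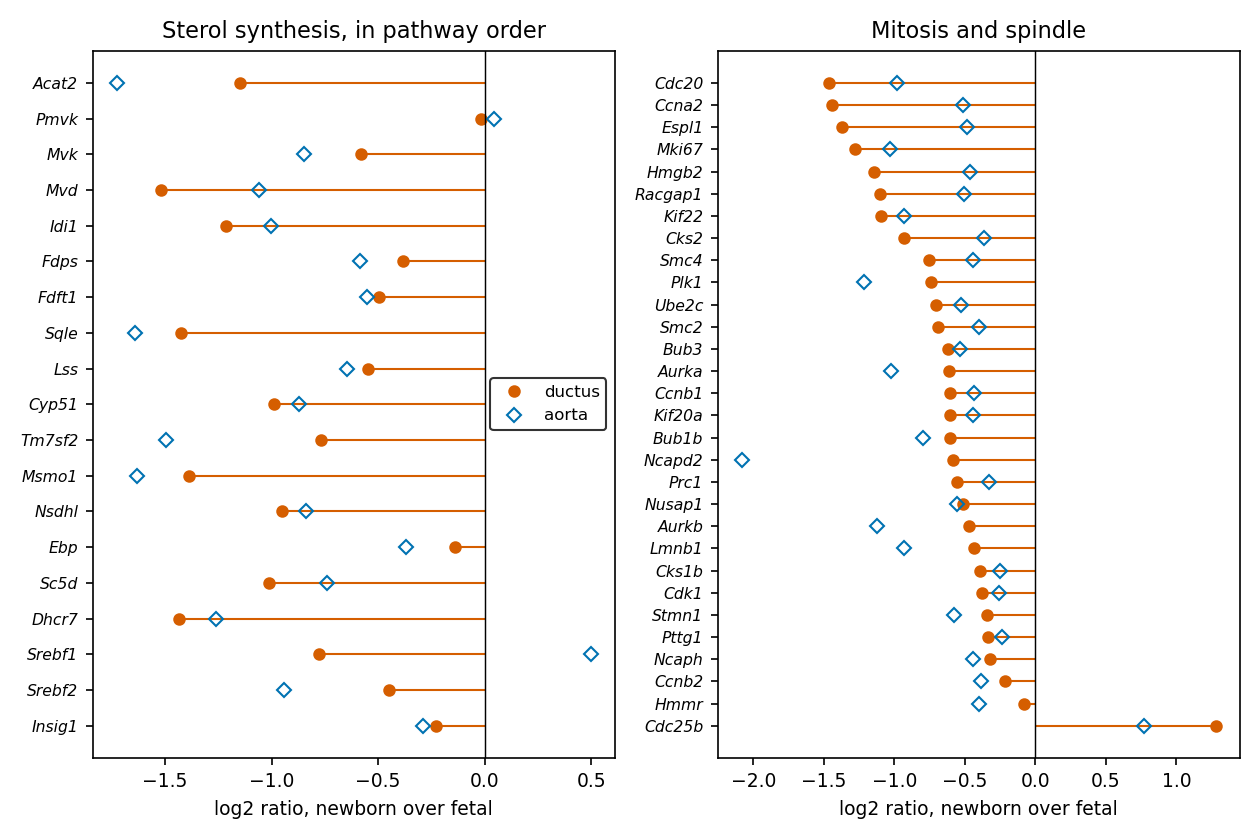
Log2 ratio of newborn over fetal signal for each measured sterol synthesis gene in pathway order and each measured mitosis gene, in ductus (dots) and aorta (diamonds), 1 array per side. All 19 sterol genes and 29 of 30 mitosis genes lie below 0 in the ductus, and Cdc25b lies above 0 in both vessels.

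Sterol promoters are shown for Msmo1 and Idi1, which were lower by over 2-fold and carry several CCAAT matches, the box that works beside sterol regulatory elements in known promoters of the pathway. RefSeq windows were found for 16 of the 19 measured members, and 13 (81.2%) held CCAAT on either strand, against 37.7% of all windows. The core TCACNCCAC of the sterol regulatory element, a search added after the data were seen, was in 0 of the 16 and in 1.13% of all windows, and its absence says only that these letters are not in the windows. Capitals mark CCAAT or its reverse complement ATTGG in the 200 bases before the start, 5′ to 3′ on the strand of the gene. Msmo1 lies at chr16:29746913-29747112 on the plus strand and Idi1 at chr17:66547525-66547724 on the minus strand (GRCr8).
Msmo1: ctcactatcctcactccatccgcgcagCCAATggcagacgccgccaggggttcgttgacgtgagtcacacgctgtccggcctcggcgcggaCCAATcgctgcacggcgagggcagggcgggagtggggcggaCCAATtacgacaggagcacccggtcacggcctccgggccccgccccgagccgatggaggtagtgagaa
Idi1: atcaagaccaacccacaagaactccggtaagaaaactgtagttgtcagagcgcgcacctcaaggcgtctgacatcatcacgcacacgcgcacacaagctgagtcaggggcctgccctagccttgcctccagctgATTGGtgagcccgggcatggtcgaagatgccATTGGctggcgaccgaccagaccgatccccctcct
Msmo1 holds CCAAT at 173, 109 and 68 bases before the start, and Idi1 the reverse complement at 66 and 35 bases. Of the smooth muscle genes, 1 of 22 windows held a CArG box (Ldb3), where the background was 1.64%.

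Contractile genes of smooth muscle were higher for 10 of 26 measured members at the 1.5-fold threshold, with 0 lower and a median of 0.40. Des, desmin of the intermediate filaments, read 423 and 1446 (3.42-fold). Itga8, the integrin that anchors contractile cells, read 1042 and 2863 (2.75-fold) and was higher on both its chips. Lmcd1, a LIM protein that is no member of the list, read 970.5 and 4063 (4.19-fold). Among the contractile proteins proper, the myosin light chain kinase Mylk read 7965 and 13516 (1.70-fold), Actg2 10627 and 16697, and Pdlim3 2962 and 5394 (1.82-fold). Others lay near the median of all genes, such as Cnn1 (-0.06), Myl9 (0.10), Vcl (-0.11) and Flna (-0.10). Probe sets disagreed in sign for Synpo2 (-0.11 to 1.02), Tpm2 (-0.33 to 1.08) and Tpm1 (-1.04 to 0.57).

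Receptors and signals that set arterial tone were higher for 11 of 34 measured members and lower for 1. The angiotensin receptor Agtr1a, which couples to contraction, read 692 and 1418 (2.05-fold), and all 4 of its probe sets lay between 0.87 and 1.15. Edn1, the precursor of the constrictor endothelin-1, read 413 and 672 (1.63-fold), its converting enzyme Ece1 2169 and 3243, and Ace, the angiotensin-converting enzyme, 235 and 449.9. In the calcium sensitisation path, Rock2 read 629 and 1237 (1.97-fold) and Rhob 1525 and 2992 (1.96-fold), while Rhoa was at 0.03. Regulators that end G protein signals were higher as well, with Rgs5 at 9334 and 20994 (2.25-fold) and Rgs2 at 0.91, while Rgs4 was at 0.38. On the relaxing side, Gucy1b1, the beta subunit of the nitric oxide receptor guanylate cyclase, read 1176 and 648 and was the member at least 1.5-fold lower. Its alpha subunit Gucy1a1 was at -0.29, Nos3 at 0.40 and Pde5a, which degrades cyclic GMP, at 0.31. Pde4b, which degrades cyclic AMP, read 447 and 1094 (2.45-fold), with 3 probe sets from 1.12 to 1.42, and the calcitonin receptor partner Ramp1 1468 and 2768.

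Genes of calcium and potassium handling, channels and pumps among them, were higher for 6 of 25 measured members and lower for 0. The median was 0.13, with a range up to 0.47 over the alternatives. Kcnd3, a transient voltage-gated potassium channel, was under the floor in the fetus at 106 and read 497 in the newborn, at least 3.32-fold higher. Both subunits of the vascular ATP-sensitive channel were higher, Kcnj8 at 507 and 845 (1.66-fold) and Abcc9 at 510.2 and 821 (1.61-fold). Kcnk3, a background potassium channel, read 375 and 575, Kcnmb1, the beta subunit of the calcium-activated channel, 1090.0 and 1648, and Orai1, the store-operated calcium channel, 305 and 546. The L-type channel Cacna1c was at 0.13 and the oxygen-sensitive potassium channel Kcna5 at 0.16, both within the middle of all genes. The sarcoplasmic pump gene Atp2a2 was at -0.42.

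Prostanoid and leukotriene genes had 3 of 15 measured members higher and 2 lower, near the background share for the lower ones. Alox15, a lipoxygenase that acts on arachidonate and linoleate, read 164 and 932 (5.70-fold), with 2 probe sets of log2 ratio 2.51. Its fold was the largest upward one among bright genes above the floor in both states, but its fetal signal lay near the floor. With a floor 1.5 times the median its log2 ratio was 2.05, and with log2 of signal plus 100 it was 1.97. Under these settings Klf9 (2.30 and 2.14) and Bnip3 (2.11 and 2.00) lay above Alox15. Pla2g2a, a secreted phospholipase that releases arachidonate, read 142 under the floor and 604, at least 4.03-fold higher. Ptgs1, cyclooxygenase 1, read 368 and 716 (1.94-fold). Ptger3, a receptor for prostaglandin E2, read 278 and 69.7, at least 1.86-fold lower, and Ptges3, a co-chaperone with prostaglandin E synthase activity, 4970 and 3188. The synthase Ptges (0.14), the prostacyclin synthase Ptgis (0.35), its receptor Ptgir (-0.32) and the transporter Slco2a1 (-0.23) had smaller ratios. The list median of 0.14 turned to -0.30 without chip A, so it carries no direction.

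Heart muscle genes were lower in the newborn ductus. Of 31 listed, 24 were measured, with 15 at least 1.5-fold lower and 1 higher, and their signals summed to 51944 before birth and 30381 after it. Myl2, the ventricular myosin light chain, read 1406 and 248 (5.68-fold lower), and all 3 of its probe sets were at -1.21 or below. Tnnt2, cardiac troponin T, read 2343 and 554 (4.23-fold lower), and Actc1, cardiac actin, 9620 and 3190.4 (3.02-fold lower). Myl3 went from 504 to 23.8, under the floor, at least 3.36-fold lower. The myosin heavy chains Myh7 (-1.79) and Myh6 (-1.63) were read on probe sets that may share sequence within the family.

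Members of the list did not move as a block. Nppa, the natriuretic peptide of the atrium, read 630.2 and 435 (-0.54), the troponin Tnnc1 9652 and 8177 (-0.24), and Casq2, cardiac calsequestrin, 1992 and 1824 (-0.13). The cardiac factor gene Gata4 read 527 and 177 (2.97-fold lower, with a log2 ratio of -0.48 at its other probe set) and Nkx2-5 was at 0.17. Gja1, the connexin of muscle and many other cells, was the member at least 1.5-fold higher. In the aorta the same list had sums of 28255 (fetal) and 40025 (newborn) and a median of 0.42. By sign, 13 of the 24 genes were lower in ductus and higher in aorta with birth, and the share of all genes that did so was not counted. In the oxygen ductus the sum was 51497. Skeletal muscle genes, 12 measured, had 0 higher and 1 lower and sums of 9207 and 9156.5. Without chip A the heart median was -0.47. How much of this signal came from heart muscle on the samples was not tested.

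**Figure D4:**
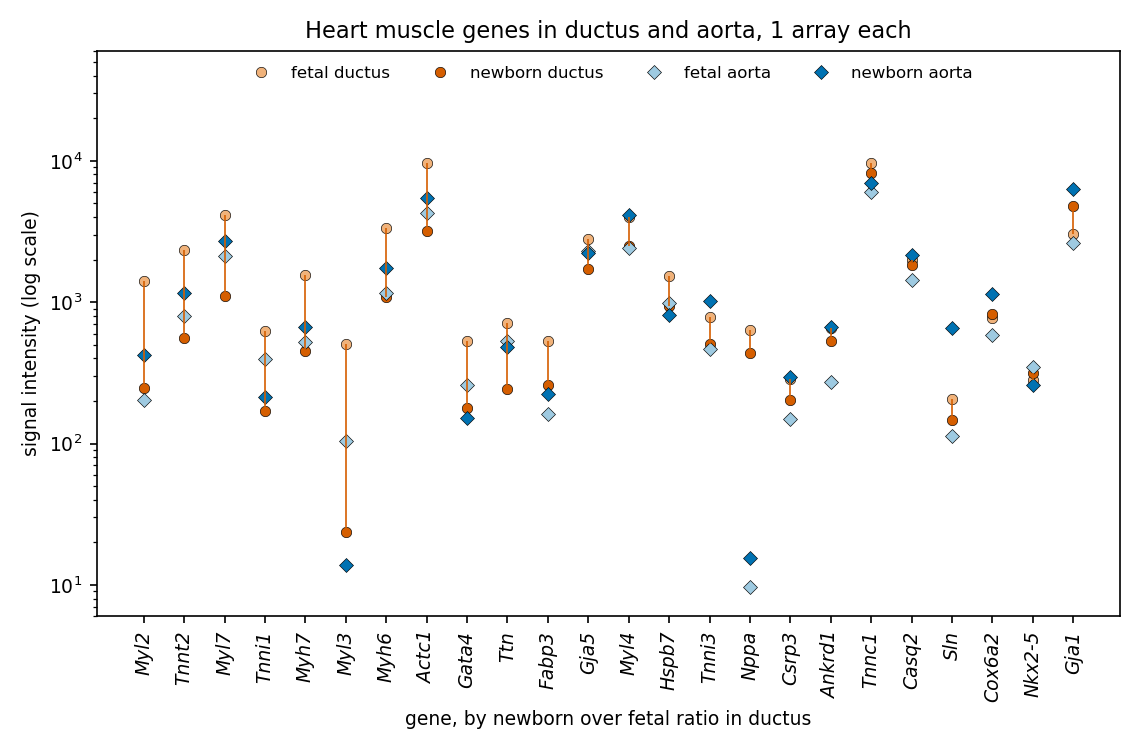
Signal (log scale) of each of 24 measured heart muscle genes in fetal and newborn ductus and in fetal and newborn aorta, 1 array each. In the ductus the newborn marks lie below the fetal marks for most genes, such as Myl2 at 248 against 1406, while in the aorta most newborn marks lie above the fetal ones.

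The globin genes Hbe1 and Hbz were lower in the newborn ductus, and Hbe2 was at 0.15. Hbe1, an embryonic beta-like globin, read 6741 and 261 in fetal and newborn ductus, 25.9-fold lower and the largest fold among all measured genes. Hbz, the embryonic zeta globin, read 721 and, under the floor, 229.5. In the fetal and newborn aorta Hbe1 read 17355 and 328. Alas2, the first enzyme of erythroid haem synthesis, was 3.52-fold higher in the newborn ductus (2369 and 8346), the alpha globin Hba-a3 2.62-fold (2582 and 6777) and Ahsp, which stabilises free alpha globin, 2.21-fold (383 and 844). Adult globins of strong signal had smaller ratios, Hba-a1 -0.14 and Hbb-bs 0.42, and some globin probe sets may share sequence with other family members. The whole list of 24 measured genes had 6 higher and 2 lower and summed signals of 177658 and 214332. Blood content of the vessels was not measured, and its part in other results was not tested.

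Markers of white blood cells and platelets were higher for 8 of 27 measured members and lower for 1, with sums of 11675 (fetal) and 14696 (newborn), and 8 of the 27 under the floor in the fetus. Pf4, platelet factor 4, read 796 and 2376 (2.99-fold). The neutrophil and monocyte genes S100a8 and S100a9 read 33.9 and 38.3 in the fetus, under the floor, and 368 and 222.5 in the newborn. The mast cell gene Cpa3 read 70.4 and 272, and Lyz2, lysozyme, 641 and 1137. Of other genes that macrophages express, Csf1r was at -0.01, C1qa at 0.08, C1qb at -0.27, C1qc at 0.16, Cd68 at 0.00 and Cd14 at 0.62. Cd74, the invariant chain of class II molecules, read 1372 and 468 on a probe set of lower specificity (2.93-fold lower). The part of such cells in the inflammatory genes was not tested.

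Endothelial genes were higher for 12 of 29 measured members and lower for 1, with summed signals of 39191 and 47645. Mcam, an adhesion molecule of endothelium and smooth muscle, read 3008 and 6245 (2.08-fold), and Eng, the endoglin co-receptor, 1300 and 2440.0 (1.88-fold). Procr, the protein C receptor, was at 0.84, Thbd, thrombomodulin, at 0.69 and Tek, the angiopoietin receptor, at 0.66. The junction gene Cdh5 was at 0.11, with 3 probe sets between -0.22 and 0.22, and Pecam1 at 0.62. These defining genes thus gave different ratios. Ltbp4 was the member at least 1.5-fold lower (10037 and 6380), and Egfl7 had probe sets from 0.09 to 1.14.

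Antigen presentation and interferon genes had 10 of 31 measured members higher and 4 lower, with a median of 0.29 that was 0.06 without chip A. RT1-A1, a class I molecule, read 286 and 1116 (3.89-fold) on a probe set that may detect several class I genes. B2m, the light chain of class I molecules, read 2136 and 4582 (2.14-fold, with 3 probe sets from 0.43 to 2.32), and the immunoproteasome subunit Psmb8 151 and 332 (2.19-fold). Rsad2, the antiviral viperin, was under the floor at 113 and read 568, at least 3.79-fold higher, and Ifitm1 and Ifitm3 were higher by log2 ratios of at least 0.84 and 0.63. Other interferon targets were lower, Oas1a at 616 and 209 (at least 2.54-fold lower, other probe set -0.14), Eif2ak2 at 354 and 188 and Usp18 at 387 and, under the floor, 221. The list therefore split, with antiviral genes in both directions.

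Inflammatory and acute phase genes were higher for 7 of 22 measured members and lower for 0, with a median of 0.36 and a range of 0.23 to 0.58 over the alternatives. Complement factor Cfb read 290 and 697 (2.41-fold), C1s was at least 1.79-fold higher, and the copper carrier Cp at least 1.66-fold. Nfkbia was the other large member. Ccl2, the monocyte chemokine, read 110, under the floor, and 215. The NF-kappaB subunits Nfkb1 (-0.11) and Rela (0.06) had small ratios.

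Matrix genes as a list lay near the median of all genes (0.08 over 66 measured members), with 11 higher and 5 lower. Structural collagens and elastin had small log2 ratios, with Col1a1 at 0.20, Col3a1 at 0.36, Eln at 0.08 (25913 and 27373), Lox at 0.21 and Fbn1 at -0.12. Fbn2, the fibrillin of fetal elastic fibres, read 7843 and 3787 (2.07-fold lower). Ltbp2 read 370 and 909 (2.46-fold higher), Mfap5, a microfibril protein, 2587 and 4795, and the calcification inhibitor Mgp 10276 and 18568. Sparc, a collagen-binding glycoprotein, read 14670 and 26399, with all 7 probe sets above 0. The cartilage collagens Col9a1 (1011 and 375) and Col2a1 (397 and, under the floor, 72.5) were lower. Col14a1 read 1654 and 4937 (2.98-fold), but its other probe set gave -0.12. Among proteases 5 of 36 were higher and 2 lower, against backgrounds of 7.72% and 9.94%. Adamts1, which cleaves versican, read 1824 and 4325 (2.37-fold), and Mmp2 was at 0.00.

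Growth factor genes were mixed, with 8 of 43 measured members higher and 6 lower. Igf1 read 3144 and 1247 (2.52-fold lower) at its brightest probe set, but its 6 probe sets ran from -1.38 to 1.02. Igfbp4, an IGF-binding protein, read 1715 and 3289 (1.92-fold higher), and Hbegf, a ligand of the EGF receptor, was higher on both its chips (339 and 589). Ptn, pleiotrophin, read 2390.5 and 1279.5 (1.87-fold lower), and Vegfa was at -0.25. In the TGF-beta, BMP, Notch and Wnt list 2 of 39 were higher and 3 lower, under the background shares of 7.72% and 9.94%. Fzd2, a Wnt receptor, read 1253 and 491 (2.55-fold lower), Fzd1 1881 and 1024, and the Notch ligand Jag1 1025 and 546, whereas the Wnt antagonist Sfrp1 read 2647 and 5416 (2.05-fold higher). Retinoid genes had 0 of 16 higher and 2 lower, near the background share for the lower ones, with a median of 0.01. The lower members were Crabp2, which carries retinoic acid to its receptors, at 929 and 370.4 (2.51-fold lower), and Aldh1a2, which makes retinoic acid, at 375 and 196.

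Fetal genes of liver plasma and imprinted growth control had 0 of 17 higher and 4 lower, with a median of -0.20 in the ductus (-0.57 without chip A) and -0.87 in the aorta. Afp, alpha-fetoprotein, read 375 and 156 (2.41-fold lower), and Igf2bp3, a fetal RNA-binding protein, 547 and 321. The imprinted growth inhibitor Grb10 read 8128 and 5152 (1.58-fold lower). Igf2 (-0.21) and H19 (-0.34) stayed within 1.5-fold.

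Hypoxia and glycolysis genes had 2 of 39 measured members higher and 4 lower, near the background shares or under them, and a median of -0.16. Bnip3, a mitochondrial protein of mitophagy that hypoxia and fasting induce, read 938 and 4044 (4.31-fold higher). Mxi1, an antagonist of Myc, was higher on both its chips (427 and 754). Other targets of hypoxia-inducible factors were not higher, such as Vegfa, Slc2a1 (-0.51), Pdk1 (-0.47) and Egln3 (-0.50). Epas1, which encodes the factor HIF-2 alpha, was at -0.64. The glycolytic gene Pfkm read 971 and 540.5 and Pygb, a glycogen phosphorylase, 3192 and 1648, and each had another probe set nearer to 0. Next to Bnip3, the autophagy genes Map1lc3b (608 and 1504, 2.47-fold) and Gabarapl1 (631 and 1074, 1.70-fold) were higher, and were chosen after their values were seen.

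Respiratory chain genes had 0 of 64 higher and 3 lower, under the background shares of 7.72% and 9.94%. The lower ones included Cox5b (2426 and 1491) and Ndufs1 (605 and 299). The 64 had a median of -0.14 in the ductus (-0.04 without chip A) and 0.24 in the aorta. Fatty acid genes had 4 of 42 higher and 5 lower, near the background shares. Fat cell markers had 4 of 16 measured members higher and 3 lower in the ductus, with log2 ratios from -0.95 to 1.37. Their sums were 10168 and 10818 in the ductus pair, against 10284 and 38388 in the aorta pair. The defining genes Ucp1 and Pparg were under the floor in both ductus states. Antioxidant genes had 7 of 46 higher and 2 lower, with a median whose sign varied with the settings. Sod3, the extracellular superoxide dismutase, read 660.2 and 1383 (2.09-fold) and Gpx4, which reduces lipid peroxides, 1608 and 3036 (1.89-fold). Hmox1, the haem oxygenase, was at 0.37 and its regulator Nfe2l2 at -0.53.

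Amino acid stress genes went in both directions, with 9 of 43 higher and 8 lower. Nupr1, a stress-induced nuclear protein, read 282 and 1019 (3.62-fold higher). Ppp1r15a, which restores translation after stress, read 259 and 607 (2.34-fold) and Mthfd2, a mitochondrial folate enzyme, 518 and 1055 (2.04-fold). Serine synthesis genes were lower, Phgdh, its first enzyme, at 1204 and 614 on 2 chips in the same direction and Psat1 at 589 and 253 (2.33-fold lower). Bcat2, a branched-chain aminotransferase, read 370 and, under the floor, 131. In the newborn aorta Psat1 was higher (510 in the fetus and 956 in the newborn). Chaperones had 2 of 46 higher and 0 lower, under the background shares of 7.72% and 9.94%. Hspa1a, the inducible heat shock protein, read 534 and 1182 (2.21-fold), and Hspa5 of the endoplasmic reticulum was at 0.27. Translation and ribosome assembly factors had a median of -0.24 over 45 genes, with Eif5 higher (496 and 939) and Mybbp1a lower (378 and 207).

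Nerve markers were higher for 5 of 22 measured members and lower for 3, with summed signals of 18425 and 23312 and a median of 0.36 that was 0.07 with a lower floor. Nptx2, a neuronal pentraxin, had the largest upward bound of the genes named, with 91.7 before and 958 after birth, at least 6.40-fold, on a probe set of lower specificity. The neuropeptide gene Gal read 209.6 and 629.7 (3.00-fold) and Npy 318 and 652 (2.05-fold). The catecholamine enzyme Th was at -0.09, and Map2 (583 and 295) and Prph (264 and 158) were lower. Glial markers had 1 of 9 higher and 0 lower, against backgrounds of 7.72% and 9.94%, and sums of 9040 and 10755. Markers of fibroblasts, adventitia and mesothelium had 6 of 21 higher and 2 lower and sums of 88678 and 111724, led by Pi16 of the adventitia at 284 and 969 (3.41-fold). Epithelial and cartilage markers had 2 of 13 higher and 3 lower, against the same backgrounds. Among them Clu, which many cells make, read 2775 and 6760 (2.44-fold). The part of these cell types in other results was not tested.

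Genes read on several chips have readings from separate arrays of the same state. Of 1248 such genes, 31 were higher and 13 lower by at least 1.5-fold on every probe set. Besides genes given above, the higher ones included Krt4 (342 and 871), Sirt2 (820.4 and 1533), Ncoa4, the ferritin receptor of autophagy (1039 and 1961), and the muscle factor Mef2c (123, under the floor, and 556). The lower ones were Cdc20, Phgdh, Tubg1, Plk4, Snrpd2, Srebf1, Myl4, Tmem9, Fasn, Smpx, Acat2, Rnd3 and Hs6st1. Tubg1, gamma tubulin of the centrosome, read 896 and 465, Plk4, the kinase of centriole duplication, 539 and 227, and Snrpd2, a core spliceosome protein, 5611 and 3060.1. The rule itself fixes that the chips give 1 direction for these genes. Among genes with large ratios but no list, Isca1, an iron-sulfur cluster protein, read 815 and 2973, a log2 ratio of 1.87 against 0.54 at its other probe set. Rnase4 read 436 and 1545, 1.83 against 0.64 at its other probe set. Cytl1, a secreted protein, read 2137 and 7482, and Net1, an exchange factor for RhoA, 390.4 and 1340. Lower were Wdr24, whose other probe sets were as near to 0 as -0.06, Abhd17c (754 and 252) and Alg8 (717 and 250.2, with -0.60 at its other probe set). The newborn signals of Abhd17c and Alg8 lay near the floor. With a floor 1.5 times the median their log2 ratios were -1.05 and -0.98 in place of -1.58 and -1.52. Bounds were met by Hip1r (at least 3.69-fold higher, with a log2 ratio of 0.47 at a probe set on another chip), Aaas (at least 3.47-fold) and the pseudogene Rps2-ps1 (at least 3.36-fold).

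The aorta pair shares no array with the ductus pair, and its age and medium oxygen differ between the sides in the same way. The title of its newborn array on chip A reads 3 hours post coitum, while the description says newborn. That array was taken as newborn. The aorta is another tissue and no repeat of the ductus contrast. Sums of the fat cell and heart muscle lists, given above, differed between the pairs. Over 7231 genes the ratios of both vessels correlated across genes with r = 0.44, where points share a chip and a scaling. In the aorta 7.74% of genes were at least 1.5-fold higher and 11.4% lower. Of the 129 genes at least 2-fold higher in the ductus, 75 (58.1%) were at least 1.5-fold higher in the aorta, and of the 135 lower ones 69 (51.1%) were at least 1.5-fold lower. Of all 7231 genes, 155 were at least 2-fold higher in the aorta and 206 at least 2-fold lower. At 2-fold in both vessels there were 42 higher genes, 32.6% of the ductus list and 27.1% of the aorta list. The lower genes at 2-fold in both were 31, which is 23.0% of the ductus list and 31 of 206 in the aorta list.

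Both vessels were lower in 28 of 32 replication genes, 29 of 30 mitosis genes and 17 of 19 sterol genes. These and the next count go by sign alone. The share of all genes with the same sign in both vessels was not counted, and the all-gene median was -0.05 in each. Sterol synthesis had a median of -0.85 in the aorta, where Sqle read 1538 and 493 (-1.64), Msmo1 2750 and 888 and Acat2 2508 and 758. The glucocorticoid list had a lower median there, 0.36, with 20 of 27 members higher in both vessels. Klf9 was higher in both (592.5 and 2502 in the aorta), while Fkbp5 read 347 and 511 and Ddit4 452 and 394. Klf2 (614 and 715) and Agtr1a (1044 and 792) had aortic log2 ratios of 0.22 and -0.40. Whether such ratios differ between the vessels was not tested, since each side is 1 array.

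The oxygen ductus came from day 19 fetuses whose dam had breathed 100% oxygen for 3 hours. Its ratios are formed against the same fetal ductus arrays, so they share that array with the newborn ratios, and values are set side by side only. Its RNA controls also stood apart, with a beta-actin 3′ to 5′ ratio of 2.54 to 3.26. In the fetal, oxygen and newborn ductus Klf9 read 687, 930 and 3379, Fkbp5 438, 371 and 1612, and Bnip3 938, 961 and 4044. Cdc20 read 1054, 1174 and 382, Sqle 1094, 1008 and 407, and Hbe1 6741, 6456 and 261. For these genes the oxygen value lay nearer the fetal than the newborn one. Other genes went the other way or lay in between. Cd74 read 1372, 526 and 468, and Aaas, under the floor in the fetus, 184, 1098 and 838. Abhd17c read 754, 438 and 252, Nptx2, under the floor in the fetus, 91.7, 406 and 958, and Des 423, 694 and 1446. List medians of oxygen over fetal ductus were 0.02 for the glucocorticoid list, 0.20 for mitosis, 0.14 for DNA replication and -0.13 for sterol synthesis, with an all-gene median of 0.04.

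**Figure D5:**
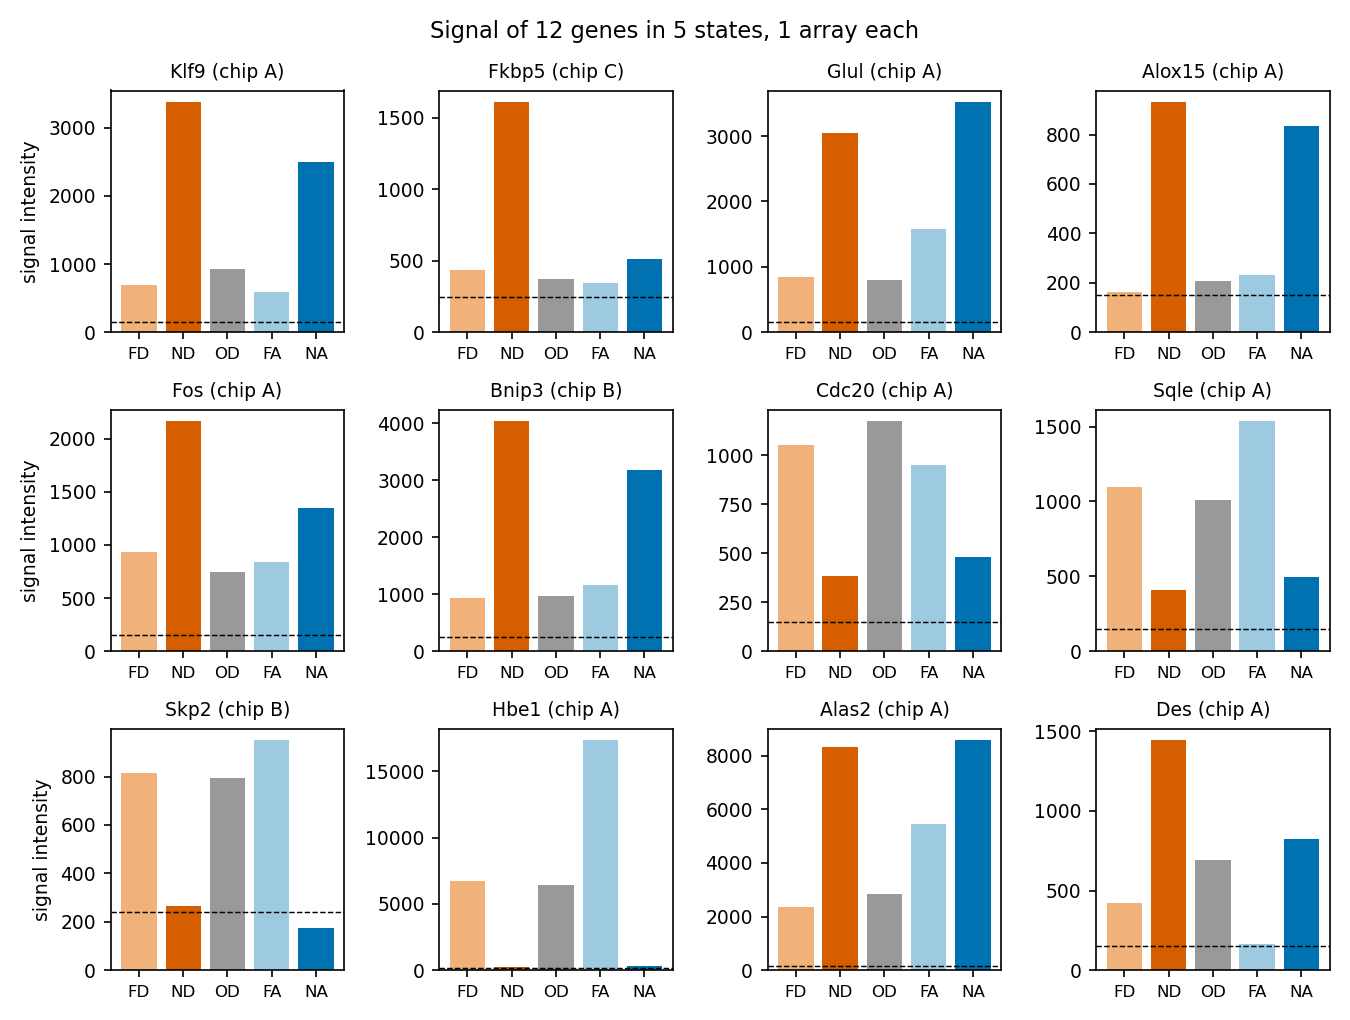
Signal of 12 genes in fetal, newborn and oxygen ductus and fetal and newborn aorta, 1 array per bar from the chip that carries the brightest probe set, with the floor of the chip dashed. Klf9 and Bnip3 are highest in both newborn vessels, Cdc20, Sqle, Skp2 and Hbe1 are lowest there, and the oxygen ductus lies near the fetal ductus in Fkbp5 (371 against 438).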

How the data were processed

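RNA of rat ductus and aorta was measured on Affymetrix RG_U34 chips A, B and C, 15 arrays with 1 per state and chip. The deposited values are signal intensity on a linear scale, and each array had been scaled by the authors to a common mean (500 after trimming 2% at each end). MAS5 is given in the submitters' processing notes for 4 chip A arrays. For the fetal aorta of chip A and for chips B and C the software is not given in the sources used here. Probe sets were named from the platform annotation: 18178 had 1 gene symbol, 391 several and 7633 none, and 18122 were found in the current RefSeq gene table.

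Ratios were computed from the intensities with Python 3.11.15, numpy 2.4.6, pandas 2.3.3 and scipy 1.17.1, and drawn with matplotlib 3.10.9. A probe set counted as measured where its mean over the 5 arrays reached the floor, the pooled median signal of the chip, which 46.9% to 51.8% of the probe sets of an array passed. Dimmer signals were set to the floor before log2 was taken. No control probe set entered. With 1 array per side no test was made, and the number of arrays limits the precision. Folds of 2 for genes and 1.5 within lists were used as thresholds.

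Named genes were the 15 each way with the largest fold (neither array under the floor, the stronger signal in the top 25% of its chip, probe sets agreeing in sign), up to 8 bounds each way, up to 15 each way at least 1.5-fold apart on several chips, and list members with large changes or known roles. Genes named outside this rule were chosen after their values were seen. Members and lists were chosen with earlier results of these data known. Counting and ratio scripts were tested on simulated data. Alternatives were another floor, log2 of signal plus 100, other scalings, the mean of all probe sets, and leaving out each chip. The search for the sterol element core was chosen after seeing the data. Promoter windows are RefSeq's on GRCr8.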

Additional observations from a re-analysis of the deposited data

Results flagged for a closer look

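For 3 genes the ductus and the aorta moved in opposite directions with birth by at least 2-fold. Each vessel has 1 array per side, so the difference between the vessels was not tested. Myl2, the ventricular myosin light chain, had a log2 ratio of newborn over fetal signal of -2.51 in the ductus (1406 and 248) and 1.06 in the aorta (203 and 423). Smpx, a small protein of striated muscle, had ratios of -1.06 in the ductus (547.5 and 262.5) and, as a lower bound, 1.66 in the aorta (86.7, under the floor, and 765), on a probe set that may share sequence with related genes. Msln, the mesothelin of the serous membranes, had ratios of -1.08 in the ductus (669 and 316) and 1.05 in the aorta (674 and 1392). Beside these, 13 of 24 measured heart muscle genes were lower in the ductus and higher in the aorta by sign, with no share over all genes counted. The part of tissue attached to the samples was not tested.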

How the results depend on the processing

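No paired analysis was possible because each state has 1 array per chip. The 69 named genes were run under the floor, scaling, pseudocount and probe set alternatives, not without a chip or under the filter on the ductus arrays. All 410 values obtained kept their sign. Ifitm1, Mef2c, Myl3 and Pdk4 gave no value at the higher floor, where they were no longer measured. Another floor, the pseudocount or the probe set mean could not reverse these ratios, since each gene was chosen with probe sets of 1 sign. Only the scalings could have changed a sign, and the genes were chosen for large ratios, so the kept signs say little. Of list medians, run under every alternative, 394 of 410 kept their sign, and the lists whose sign varied had medians near 0 or few members (antioxidant, ribosomal, fat, glia, transporters, prostanoids, retinoid). Counts depended most on the floor. With the floor at the pooled 25th percentile, 823 probe sets and 314 genes were at least 2-fold higher and 903 and 366 lower, and with a floor 1.5 times the median 161 probe sets and 78 genes were lower. Without chip A 87 genes were lower. The glucocorticoid median of 0.89 became 0.74 with log2 of signal plus 100, 0.80 without chip A and 0.78 without chip C, and the mitosis median of -0.61 became -0.53 with log2 of signal plus 100. Heart muscle moved from -0.70 to -0.91 with the mean of all probe sets and to -0.47 without chip A, and sterol synthesis from -0.78 to -0.59 without chip A. The DNA replication median stayed between -0.63 and -0.53. Scaling to a common median or by quantiles moved the median of all genes from -0.05 to -0.03 and -0.04. With the mean of its probe sets Wdr24 moved to -0.60, Hip1r to 1.18, Isca1 to 1.20, Rnase4 to 1.23 and Glul to 1.12, and Myl3 reached -3.74 with the lower floor. Where the value moved, the cause was not tested, except that leaving out a chip removes genes from a list. Signals near the floor limit what can be read: 191 genes were under it in the fetal ductus, 266 in the newborn and 73 in both.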

Other observations

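Apoptosis and growth arrest genes had 7 of 24 measured members higher in the newborn ductus and 1 lower, and membrane transporters 6 of 48 higher and 5 lower, against backgrounds of 7.72% and 9.94%. Proteasome and ubiquitin genes had 3 of 50 higher and 3 lower. Cytosolic ribosomal proteins had 0 of 52 higher and 1 lower, Rpl17 at 878 and 455. Chip A, B and C alone gave 108, 98 and 82 probe sets at least 2-fold higher and 111, 86 and 67 lower.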
